A study of Mus musculus with 16 samples.

Results

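The genes described here are 8 genes of lipid and cholesterol synthesis, Acly, Acaca, Fasn, Scd1, Scd2, Srebf1, Srebf2 and Sqle, taken by name from the 21938 protein-coding genes that GENCODE M21 places on assembled mouse chromosomes. All 8 were found. Membership rests on function, and no measured value enters the rule. The study itself displayed Acly as an example gene. Chromatin immunoprecipitation and sequencing (ChIP-seq) was carried out with an antibody against histone H2B carrying a single ubiquitin (H2Bub1) and with an antibody against RPB1, the largest subunit of RNA polymerase II (Pol II), to ask where both lay when H2B deubiquitylation was impaired. The cells were wild-type (WT, Atxn7l3+/+) or lacked Atxn7l3 (KO, Atxn7l3-/-), and both mouse embryonic stem cells (mESCs) and embryonic fibroblasts (MEFs) of each genotype were used. All came from untreated cells of a DBA/2 x C57BL/6 background. The mESCs had been derived from blastocysts of heterozygous crosses and were grown with LIF and 2 kinase inhibitors. The MEFs had been made from E10.5 embryos of such crosses after removal of the head and gut, and thus were primary cultures of mixed origin. The Atxn7l3 allele is a constitutive deletion, so the KO cells had lacked the protein throughout development.

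Each group was 1 library, so there were no replicates, the differences below could not be checked against replicate spread, and p-values are not given. Between 11963 and 45870 Pol II peaks and between 19725 and 48952 H2Bub1 peaks were called per library, and the number of reads behind them is unknown. H2Bub1 peaks covered 71.6 Mb (WT) and 151 Mb (KO) in mESCs, and 48.1 Mb (WT) and 223 Mb (KO) in MEFs. Pol II peaks covered 12.5 Mb and 7.65 Mb in WT and KO mESCs, and 51.5 Mb and 32.4 Mb in WT and KO MEFs. Counts and covered lengths can move with how much was called, so the main counts are set beside the same measure over all genes. At the targeted gene, Atxn7l3, the H2Bub1 covered share was 100% for WT and 62.5% for KO mESCs, and 22.0% for WT and 65.3% for KO MEFs, and Pol II peaks were called at its promoter in each of the 4 libraries. The deletion takes out exons downstream of the promoter, so the promoter checks nothing. The longest stretch of the gene outside H2Bub1 peaks was 2750 bp in KO mESCs (chr11:102291909-102294658) and 2541 bp in KO MEFs (chr11:102291991-102294531), while WT mESCs had none. In WT MEFs it was 5078 bp long and took in most of both, so the stretch does not separate the MEF libraries. Of 6 pluripotency markers, 5 had a Pol II promoter peak in both mESC libraries, against 0 in WT MEFs and 1 in KO MEFs. Of 6 fibroblast markers, 1 had a peak in the mESC libraries and all 6 did in both MEF libraries, with a fold from 10.47 to 43.3 in WT and from 5.38 to 23.9 in KO. The part of these markers in the Pol II differences in MEFs was not tested. Lipid synthesis is prominent in fat and liver, so markers of these were examined too, and Pparg was the only one of 5 adipocyte markers with a peak, in both MEF libraries, while 0 of 4 hepatocyte markers had one in any library. Of 4 endothelial and 3 blood cell markers, 1 each had a peak in each MEF library and 0 in mESCs, and 2 of 3 epithelial markers had one in mESCs and 0 in MEFs.

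Fatty acids are built in the cytosol from acetyl-CoA. ATP-citrate lyase (Acly) makes acetyl-CoA from citrate, acetyl-CoA carboxylase 1 (Acaca) turns it into malonyl-CoA, fatty acid synthase (Fasn) elongates the chain, and the stearoyl-CoA desaturases (Scd1 and Scd2) insert a carbon-carbon double bond. Squalene epoxidase (Sqle) carries out an oxygenation step on the branch that leads to cholesterol. The transcription factors SREBP-1 (Srebf1) and SREBP-2 (Srebf2) activate genes of both branches when sterols are scarce, SREBP-1 mainly those of fatty acid and SREBP-2 mainly those of cholesterol synthesis, often together with the factors NF-Y and Sp1. H2Bub1 is a mark of transcribed gene bodies. ATXN7L3 is the adaptor that several related ubiquitin proteases need to remove it.

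All 8 genes are autosomal, and positions are those of mm10 (GRCm38). On chromosome 11 lie Acly (ENSMUSG00000020917, 100476353 to 100528000, minus strand), Acaca (ENSMUSG00000020532, 84129672 to 84401651, plus strand), Fasn (ENSMUSG00000025153, 120805846 to 120824547, minus strand) and Srebf1 (ENSMUSG00000020538, 60199089 to 60222581, minus strand). On chromosome 19 lie the related genes Scd1 (ENSMUSG00000037071, 44394455 to 44407879, minus strand) and Scd2 (ENSMUSG00000025203, 44293674 to 44306864, plus strand). On chromosome 15 lie Srebf2 (ENSMUSG00000022463, 82147181 to 82205379, plus strand) and Sqle (ENSMUSG00000022351, 59315077 to 59331192, plus strand). Their lengths run from 13.2 kb at Scd2 to 272 kb at Acaca. The start of Acaca lies 72 bp from that of the divergent gene Tada2a, so both genes share 1 promoter peak and its value cannot be assigned to either.

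The promoter sequences are given here because Pol II at these starts is the first readout. The RefSeq table of promoters (GRCm38.p6) held 7 windows for 5 of the genes, each of 300 bases around a RefSeq start. Those of Acly, Fasn and Srebf2 and the first 2 of the 3 windows of Srebf1 are printed 5′ to 3′ on the strand of the gene, with the letters CCAAT, or ATTGG on the other strand, in capitals. These letters are the NF-Y motif.
Acly, chr11:100527951-100528250, minus strand: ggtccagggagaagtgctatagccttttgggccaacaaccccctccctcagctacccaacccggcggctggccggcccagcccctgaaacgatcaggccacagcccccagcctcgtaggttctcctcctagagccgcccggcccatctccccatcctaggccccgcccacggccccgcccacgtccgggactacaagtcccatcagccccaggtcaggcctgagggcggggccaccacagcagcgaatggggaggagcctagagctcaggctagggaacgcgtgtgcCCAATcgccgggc
Fasn, chr11:120824498-120824797, minus strand: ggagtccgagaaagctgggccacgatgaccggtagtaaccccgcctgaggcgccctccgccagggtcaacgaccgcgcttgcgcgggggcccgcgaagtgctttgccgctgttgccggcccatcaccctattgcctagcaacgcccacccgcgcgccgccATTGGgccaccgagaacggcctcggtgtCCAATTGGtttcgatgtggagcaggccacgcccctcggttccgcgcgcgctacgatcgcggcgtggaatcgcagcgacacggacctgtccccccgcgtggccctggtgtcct
Srebf2, chr15:82147019-82147318, plus strand: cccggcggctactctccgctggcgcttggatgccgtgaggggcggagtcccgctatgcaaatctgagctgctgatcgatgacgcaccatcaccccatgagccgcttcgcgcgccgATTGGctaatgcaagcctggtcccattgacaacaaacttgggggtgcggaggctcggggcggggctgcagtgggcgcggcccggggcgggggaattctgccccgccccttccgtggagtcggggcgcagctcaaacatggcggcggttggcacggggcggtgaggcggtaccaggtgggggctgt
Srebf1 upstream start, chr11:60222532-60222831, minus strand: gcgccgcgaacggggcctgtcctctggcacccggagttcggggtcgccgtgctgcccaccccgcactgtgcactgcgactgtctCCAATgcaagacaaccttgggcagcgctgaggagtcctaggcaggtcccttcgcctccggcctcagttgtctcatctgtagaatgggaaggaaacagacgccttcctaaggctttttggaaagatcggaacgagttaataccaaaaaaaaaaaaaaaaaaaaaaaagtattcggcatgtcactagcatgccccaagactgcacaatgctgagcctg
Srebf1 second start, chr11:60220578-60220877, minus strand: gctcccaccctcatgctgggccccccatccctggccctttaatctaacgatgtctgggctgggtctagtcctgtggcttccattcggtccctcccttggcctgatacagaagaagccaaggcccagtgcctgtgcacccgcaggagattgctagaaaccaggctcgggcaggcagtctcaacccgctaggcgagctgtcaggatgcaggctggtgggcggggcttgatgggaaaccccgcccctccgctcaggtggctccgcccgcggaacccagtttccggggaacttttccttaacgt

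CCAAT occurred 3 times in the Fasn window, where a forward and a reverse match overlap by 2 bases, and once each in those of Acly, Srebf2 and the upstream start of Srebf1. The third Srebf1 window also held 1 match and the second held none. The 1 window of Acaca, which also held none, belongs to an internal RefSeq start 65766 bp past the TSS with no Pol II peak in any library, so the promoter of Acaca described below is not among the windows. Over all 32851 windows of the table, 37.4% held CCAAT on either strand. GGGCGG, the letters bound by Sp1, was found in 4 of the 7 windows, against 35.7% of all windows. It occurred 5 times at Srebf2, 4 times at Acly, 3 times at the second and 2 times at the third start of Srebf1, and it was not found at Fasn, at the upstream start of Srebf1 or in the window of Acaca. Neither CACGTG, an E-box, nor TCACNCCAC, a core of the sterol regulatory element, was found on either strand of the 7 windows, and 7.15% and 1.24% of all windows held them. In WT mESCs, Pol II peaks covered 100% of each of the 5 printed windows. In KO mESCs they covered 100% of that of Acly, 88.3% of that of Srebf2, 18.7% of that of Fasn, and 33.0% and 12.3% of the first and second windows of Srebf1. In both MEF libraries the windows of Acly, Fasn and Srebf2 were covered to 100%.

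Pol II at the promoters was taken as the highest fold enrichment among the peaks within 1000 bp of the annotated transcription start site (TSS). The fold is the authors' value of a peak over the background of its own library, so WT and KO values stand side by side and set no level across libraries. In mESCs, 6 of the 8 genes had a promoter peak in WT and 6 in KO, against 33.9% and 31.3% of all genes. In MEFs, all 8 had one in both genotypes, against 54.1% and 51.1% of all genes.

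Fasn had the highest promoter value of the 8 genes in both mESC libraries and in KO MEFs. Its fold was 10.4 for WT and 11.6 for KO mESCs, and 25.1 for WT and 47.3 for KO MEFs. The value of KO MEFs was above that of 99.96% of the promoters called there, and the KO over WT ratio in MEFs, 1.88, was above that of 98.3% of genes with a peak in both. In mESCs the ratio was 1.12.

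Acly, the step before Acaca and Fasn, went the other way. Its promoter fold was 7.19 for WT and 3.36 for KO mESCs, a ratio of 0.467, and 1.11% of genes had a lower one. In MEFs it was 26.6 in WT, the highest value of the 8 in that library, and 17.4 in KO. The ratio in MEFs was 0.654, and 22.9% of genes had a lower one. Acaca, with the shared start, had 4.13 and 3.77 in WT and KO mESCs and 14.0 and 13.3 in WT and KO MEFs.

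The desaturase genes differed between the cell types. Scd1 had no promoter peak in either mESC library, and its fold was 6.92 for WT and 7.92 for KO MEFs. Scd2 had a fold of 3.48 in WT mESCs and no promoter peak in KO mESCs, and 16.7 for WT and 8.22 for KO MEFs, a ratio of 0.492. A peak in WT alone was found at 7.64% of all genes in mESCs, and Scd2 was the only one of the 8. Its peak lay at 487 to 801 bp and was not called with a promoter of -100 to 300 bp, which left 5 of the 8 genes with a peak in WT mESCs. Sqle was the only one with the opposite pattern, which 5.13% of all genes had, although Srebf1 joined it at a -log10 q of at least 3 and with equal numbers of peaks. It had no promoter peak in WT mESCs and a fold of 4.24 in KO mESCs, and its values in MEFs were 10.7 in WT and 5.82 in KO, a ratio of 0.545.

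Of the SREBP genes, Srebf2 had a promoter fold of 6.01 for WT and 4.27 for KO mESCs and of 15.5 and 14.7 in WT and KO MEFs. At Srebf1 the annotated gene starts with a processed transcript, and at this start the fold was 2.43 for WT and 4.05 for KO mESCs, a ratio of 1.67, and 7.63 for WT and 5.88 for KO MEFs, a ratio of 0.770. Its protein-coding transcripts start further down. At 1977 bp, which is near the second window printed above, the fold was 3.26 for WT and 2.68 for KO mESCs and 15.3 for WT and 9.33 for KO MEFs. At 12116 bp it was 3.43 in WT mESCs, with no peak in KO mESCs, and 7.60 and 5.46 in WT and KO MEFs. The KO value was thus above the WT value in mESCs at the upstream start alone. Acaca also has coding transcripts with internal starts. The one at 50159 bp had a Pol II peak in all 4 libraries, with 4.48 and 4.71 in WT and KO mESCs and 8.16 and 4.28 in WT and KO MEFs, and those at 43450, 65766 and 150783 bp had none.

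Across the list, the KO over WT ratio of the promoter fold could be formed for 5 genes in mESCs, with a median of 0.913, and for 8 in MEFs, with a median of 0.859. The medians over all genes with a peak in both genotypes were 1.02 and 0.853. In mESCs the direction of the list's median depended on the starts taken, since it was 1.05 when any annotated start counted. A ratio of at least 1.5 was seen at 1 of 5 genes in mESCs (Srebf1) and 1 of 8 in MEFs (Fasn), against 11.0% and 5.72% of all genes. The Srebf1 call was lost under each alternative, with a ratio of 1.36 in a narrower promoter window, 1.18 with any annotated start and no WT peak left at a -log10 q of at least 3 or with equal numbers of peaks. A ratio of at most 1 over 1.5 was seen at 1 of 5 in mESCs (Acly) and 3 of 8 in MEFs (Acly, Scd2 and Sqle), against 10.8% and 24.3%. With any annotated start, the ratio of Srebf1 in MEFs was 0.609, which passes this limit as well.

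**Figure D1:**
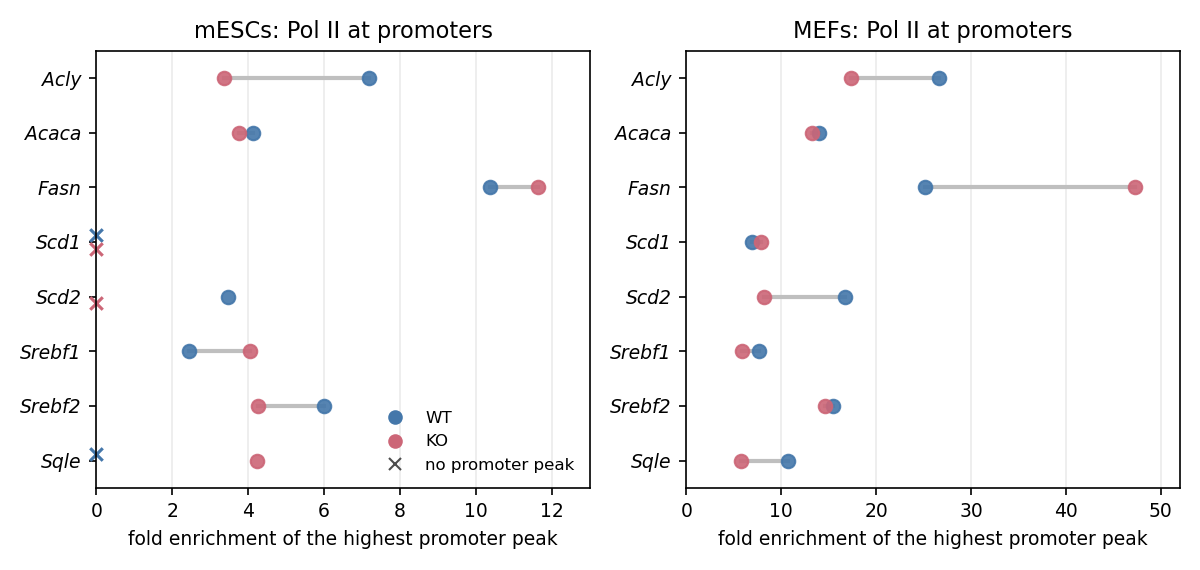
Fold enrichment of the highest Pol II peak within 1000 bp of the TSS (linear axis, a separate scale for each cell type) for the 8 genes in mESCs (left) and MEFs (right), with 1 library per point, WT in blue and KO in red, and crosses at 0 for libraries with no promoter peak. Fasn stands highest in KO MEFs at 47.3, while Acly is lower in KO in both cell types and Scd1 has no peak in mESCs.

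Along the gene bodies, Pol II peaks were fewer in KO. Peaks with a summit in the body more than 1000 bp past the TSS numbered 12 for WT and 3 for KO mESCs and 19 for WT and 10 for KO MEFs over the 8 genes. Over all genes they numbered 6614 and 3636 in WT and KO mESCs, and 25140 and 16559 in WT and KO MEFs. In mESCs, all 5 genes with such a peak (Acaca, Fasn, Srebf1, Srebf2 and Sqle) had fewer in KO, against 59.2% of such genes overall. In MEFs, 4 of 6 did (Acly, Fasn, Srebf1 and Sqle), against 56.3%, while Acaca went from 1 to 2 and Scd2 from 1 to 2. At Srebf1 the peaks numbered 5 for WT and 1 for KO mESCs, and 7 for WT and 5 for KO MEFs. At Fasn they numbered 3 and 1 in mESCs and 4 and 1 in MEFs. At Sqle they numbered 1 and 0 in mESCs and 5 and 0 in MEFs. These counts include peaks at the internal coding starts described above, at 1977 and 12116 bp of Srebf1 and at 50159 bp of Acaca. The KO Pol II lists were shorter in both cell types, and with equal numbers of peaks the WT totals were 6 in mESCs and 12 in MEFs against 3 and 10 in KO.

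Past the transcript end, summits within 5 kb numbered 10 for WT and 3 for KO mESCs and 16 for WT and 10 for KO MEFs. Over all genes, mESCs had 6241 (WT) and 3703 (KO), and MEFs 14017 (WT) and 9636 (KO). Fewer in KO were seen at 4 of 6 genes in mESCs and 4 of 7 in MEFs, near the 53.5% and 51.0% of all genes with such a peak. Of the summits past Acly, 1 in each library lies at the start of another gene, Klhl11, 3612 bp past the end of Acly, so it cannot be assigned to Acly. No other annotated gene starts within 5 kb past any of the 8.

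In WT MEFs, Scd2 had the largest Pol II covered share of the 8 genes, whereas in KO MEFs Srebf1 and in both mESC libraries Fasn had it. Pol II peaks covered 94.0% of the body of Scd2 in WT MEFs, a larger share than at 97.7% of all genes, in 3 peaks between -1020 bp, upstream of the TSS, and 17415 bp. In KO MEFs the promoter peak ended at 1614 bp, and 21.9% of the body was covered. In mESCs the shares were 2.39% in WT and 0% in KO. The KO minus WT difference in MEFs, -72.14 percentage points, was lower at only 0.21% of all genes. Sqle, with 30.8% for WT and 1.63% for KO MEFs, and Srebf1, with 47.9% and 29.5%, showed the same direction, as did Fasn, with 22.7% and 9.22%. A Pol II covered share lower by at least 10 points in KO was thus found at 4 of 8 genes in MEFs, against 10.0% of all genes, and at 0 of 8 in mESCs, against 4.05%. The other 4 genes had at most 4.80% of the body inside Pol II peaks in any library. A gene can be lower by 10 points only if at least 10% of it was covered in WT. In WT MEFs the median Pol II covered share was 1.32% over all genes and 5.94% over those with a Pol II promoter peak. Most genes could therefore not be called, and no share or rank restricted to genes with enough cover was computed. At Scd2 in MEFs both shares stayed the same with a stricter threshold and with equal numbers of peaks. The threshold, a -log10 q of at least 3, could not move them, since its weakest body peak there had 3.88. The KO list was the shorter one, so equal numbers could not move the KO share. These alternatives were not run for the Pol II shares of Sqle, Srebf1 and Fasn.

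H2Bub1 over the bodies was measured as the share of the gene from TSS to transcript end that lay inside H2Bub1 peaks. All 8 genes had at least 1 such peak in both mESC libraries and in KO MEFs. In WT MEFs 6 of 8 had one, and there Acaca and Scd1 had none. Over all genes the percentages were 53.6% and 60.8% in WT and KO mESCs, and 30.4% and 53.0% in WT and KO MEFs. The count of WT MEFs rests on weak peaks. When a -log10 q of at least 3 was asked for, Fasn alone of the 8 genes had a peak there, while 8 of 8 still had one in KO MEFs.

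The median covered share of the 8 genes was 54.7% for WT and 80.1% for KO mESCs, and 19.1% for WT and 34.3% for KO MEFs. The median over all genes was 0.866% and 5.64% in WT and KO mESCs, and 0% and 4.29% in WT and KO MEFs. Over genes whose promoter carried a Pol II peak in the same library it was 17.4% and 40.8% in mESCs, and 0.879% and 49.9% in MEFs. The median of the 8 genes thus lay above that of such genes in the mESC libraries and in WT MEFs, and below it in KO MEFs. In WT MEFs the median of the 8 was 0% at a -log10 q of at least 3.

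A covered share at least 10 percentage points higher in KO was found at 4 of 8 genes in mESCs (Acly, Scd1, Srebf2 and Sqle), against 32.1% of all genes. Restricted to genes whose promoters had Pol II peaks in both genotypes, it was found at 2 of 5, against 54.5%. In MEFs it was found at 6 of 8 genes, all but Acly and Fasn, against 45.0% of all genes and 82.1% of those with Pol II peaks in both genotypes. A share at least 10 points lower in KO was found at 1 of 8 genes in mESCs (Scd2), against 2.81% of all genes, and at 0 of 8 in MEFs, against 0.109%. Over the first 5 kb the Scd2 value in mESCs was 9.5 points, which ends that call and turns its direction. The median difference was 12.5 points in mESCs and 20.7 points in MEFs for the 8 genes, and 12.1 and 34.3 points for genes with Pol II peaks in both genotypes. Scd1, Scd2 and Sqle are outside that class of genes in mESCs. Over all genes the median difference was 0.838 points in mESCs and 3.12 points in MEFs. In mESCs, a -log10 q of at least 3 left 1 gene of the 4, Scd1. In MEFs it left 5 of the 6, without Acaca. Over the first 5 kb the count in MEFs was 7, with Acly and Fasn and without Acaca. Over the same stretch in mESCs it was 3, with Scd1, Srebf2 and Srebf1, since Acly (0 points) and Sqle (2.46 points) were lost and Srebf1 (27.3 points) was gained.

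**Figure D2:**
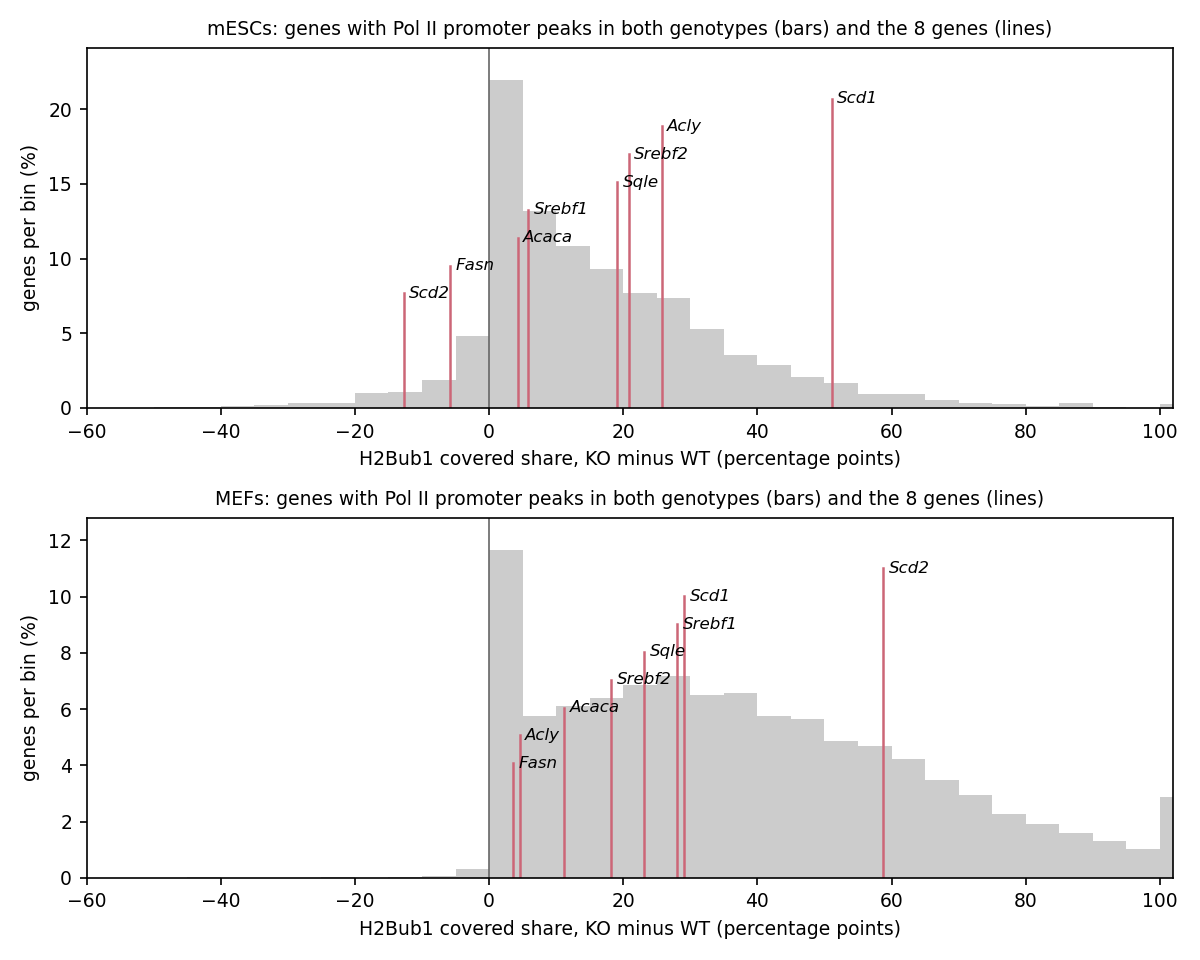
Difference in H2Bub1 covered share between KO and WT (percentage points, bins of 5) in mESCs (top) and MEFs (bottom). Grey bars give the percentage of genes whose promoters had Pol II peaks in both genotypes (5751 in mESCs and 10892 in MEFs), and red lines, whose heights carry no value, mark the 8 genes, of which Scd1, Scd2 and Sqle are not in the mESC bars. Scd2 lies at -12.7 points in mESCs and at 58.8 points in MEFs.

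Acly, the gene the study displayed, had its first 5 kb covered to 100% in both mESC libraries, and its further body carried the difference. A peak that ended at 9900 bp in WT mESCs ended at 14316 bp in KO mESCs, although WT had another from 10970 to 14960 bp. Further down both had separate peaks with gaps between them. The widest of these in KO ran from 26481 to 32773 bp, where WT had shorter ones. Of the whole body, 44.3% was covered in WT mESCs and 70.1% in KO mESCs. In MEFs, H2Bub1 stayed near the start. In WT, 2 peaks of 863 and 1446 bp covered 46.2% of the first 5 kb. In KO, 1 peak from 117 to 4778 bp covered 93.2% of it, yet only 9.03% of the whole body.

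Acaca, the longest gene, had the lowest share of the 8 in both mESC libraries. In WT MEFs it was at 0% together with Scd1, and in KO MEFs Acly was lower. Its share was 0.918% for WT and 5.17% for KO mESCs, and 0% for WT and 11.2% for KO MEFs, which is 30.5 kb. The widest of its peaks in KO MEFs ran for 16.0 kb from 50147 bp, at the internal start that also carried Pol II. In KO mESCs the widest, 6.4 kb, began at 49373 bp.

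Fasn was covered to 100% for WT and 94.2% for KO mESCs. In each of these libraries its H2Bub1 was 1 peak that began upstream of the TSS. In MEFs 35.2% was covered in WT and 38.7% in KO. The first peak in MEFs ran from 788 to 5284 bp in WT and from -634 to 6018 bp in KO, with a mean fold of 3.44 and 5.18. The difference in MEFs, 3.56 points, did not keep its size or direction among the alternatives. It was 15.8 points over the first 5 kb, -0.69 points from 1000 bp onward and -2.99 points with equal numbers of peaks.

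Scd1 and Scd2, which encode enzymes with the same activity, had different H2Bub1 patterns. Scd1 was covered to 25.5% for WT and 76.6% for KO mESCs, although no Pol II promoter peak was called in either, and its difference of 51.1 points was above that of 96.1% of all genes. In MEFs none of it was covered in WT (0%) and 29.1% in KO. Scd2 was covered to 96.4% for WT and 83.7% for KO mESCs, and to 41.2% for WT and 100% for KO MEFs. In KO MEFs, 1 peak spanned Scd2 from -158 to 14607 bp, where WT MEFs had a peak from 581 to 5726 bp and a short one. In MEFs, Scd2 thus had a Pol II covered share lower in KO and an H2Bub1 covered share higher in KO.

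At the SREBP genes, Srebf1 was covered to 94.2% for WT and 100% for KO mESCs, and to 50.3% for WT and 78.3% for KO MEFs. Srebf2 was covered to 62.7% and 83.5% in WT and KO mESCs, and to 31.5% and 49.7% in WT and KO MEFs. Over the first 5 kb of Srebf2, 0.8% was covered in WT MEFs and 100% in KO MEFs. Its first peak began at 4960 bp in WT MEFs and at -59 bp in KO MEFs, where it ran for 24.3 kb with a mean fold of 6.45, against 9.7 kb and 3.45 in WT. The microRNA gene Mir33 lies in an intron of Srebf2, at 50941 bp from its TSS (chr15:82198122-82198190), and H2Bub1 peaks covered 88.4% of it in WT mESCs, 100% in KO mESCs and 0% in both MEF libraries. Sqle was covered to 46.7% and 65.8% in WT and KO mESCs, and to 6.79% and 29.9% in WT and KO MEFs.

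**Figure D3:**
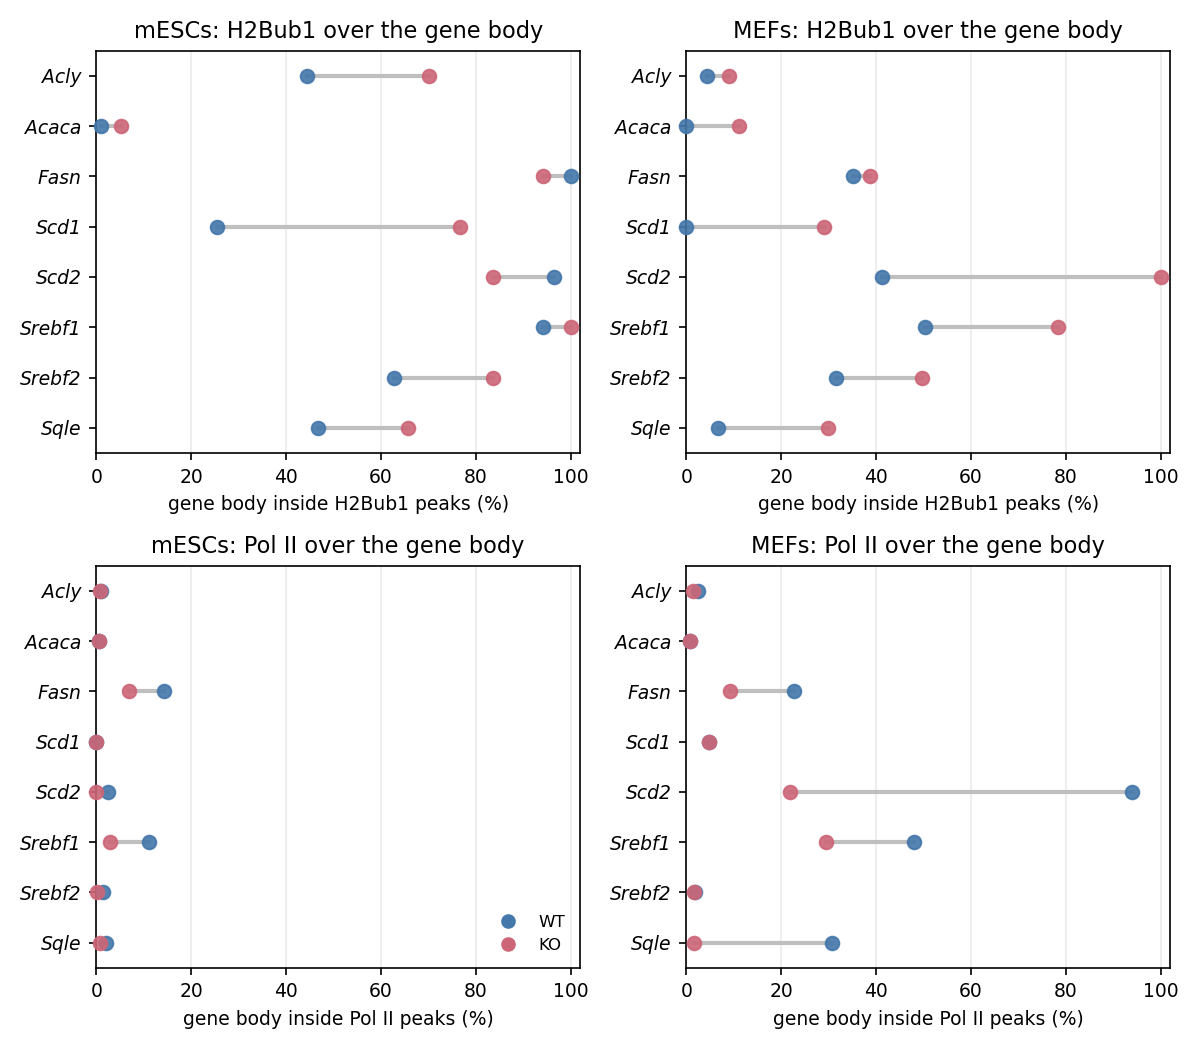
Percentage of the gene body inside H2Bub1 peaks (top) and Pol II peaks (bottom) for the 8 genes in mESCs (left) and MEFs (right), with 1 library per point, WT in blue and KO in red. H2Bub1 shares are higher in KO at all 8 genes in MEFs and at 6 in mESCs, with Fasn and Scd2 the exceptions, and the Pol II share of Scd2 in MEFs is 94.0% in WT and 21.9% in KO.

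**Figure D4:**
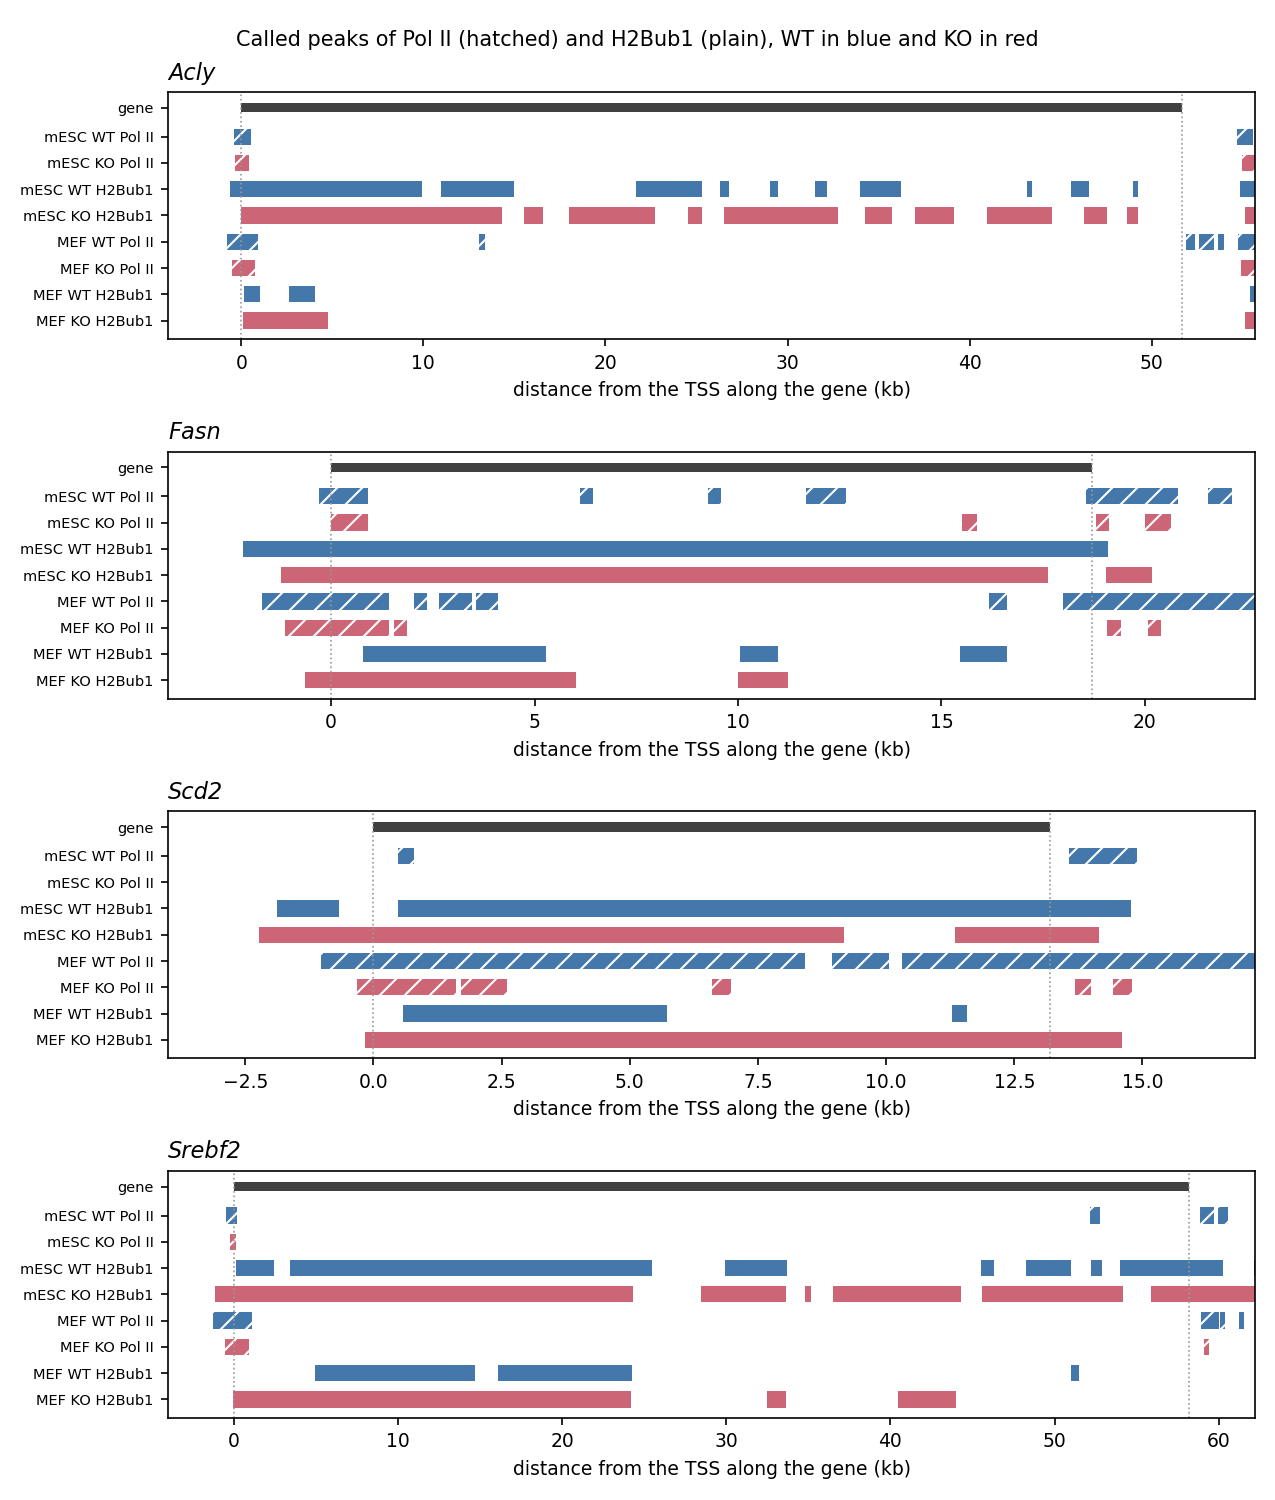
Positions of called peaks along Acly, Fasn, Scd2 and Srebf2 as distance from the TSS (kb), with the gene as a dark bar and dotted lines at its start and end. Each row is 1 library, with WT in blue, KO in red, Pol II hatched and H2Bub1 plain, and the H2Bub1 peak of Srebf2 begins at 4960 bp in WT MEFs and at -59 bp in KO MEFs.

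The median start of the first H2Bub1 peak lay further upstream in KO, with exceptions in mESCs at Acly, where it was at -600 bp in WT and -20 bp in KO, and at Fasn, where it was at -2164 bp in WT and -1239 bp in KO. The peak began upstream of the TSS at 3 of 8 genes in WT mESCs and 7 of 8 in KO mESCs, with a median position of 130.5 and -1148 bp. In MEFs it was upstream at 0 of 6 genes in WT and 4 of 8 in KO, with a median of 1280 and 12.5 bp. Acaca is among the genes with an upstream start in both mESC libraries and in KO MEFs. Its first peak there began at -2032 bp in WT mESCs, -5570 bp in KO mESCs and -9132 bp in KO MEFs. That peak reaches over the divergent gene Tada2a, so these counts and medians include a peak that cannot be assigned to Acaca. At the TSS itself, 3 and 7 genes were inside a peak in WT and KO mESCs, and 0 and 4 in WT and KO MEFs. Of the 12669 genes longer than 13 kb, the TSS was inside a peak at 19.9% and 44.2% in WT and KO mESCs, and at 4.0% and 40.8% in WT and KO MEFs. At 2000 bp, 7 of the 8 genes were covered in both mESC libraries, 3 in WT MEFs and 7 in KO MEFs. At 10 kb, 5 were covered in both mESC libraries, and 1 and 4 in WT and KO MEFs. In mESCs the counts were equal at these distances but not at all between them, with 5 genes in WT and 7 in KO at 3000 bp and 6 in WT and 5 in KO at 9500 bp. Of the genes longer than 13 kb, 19.3% and 42.02% were covered at 2000 bp in WT and KO mESCs, and 13.7% and 52.1% in WT and KO MEFs. At 10 kb, mESCs had 12.03% (WT) and 24.9% (KO), and MEFs 10.4% (WT) and 35.9% (KO).

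**Figure D5:**
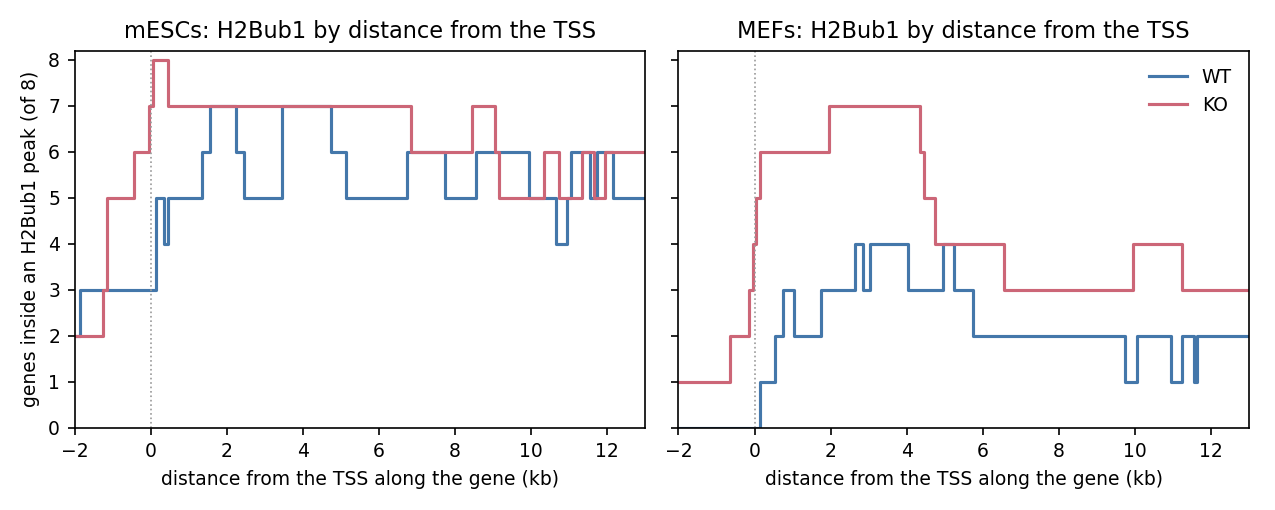
Number of the 8 genes inside an H2Bub1 peak at each distance from the TSS (kb, negative values upstream) in mESCs (left) and MEFs (right), with WT in blue, KO in red and 1 library per line. At the TSS the KO lines stand at 7 and 4 genes and the WT lines at 3 and 0.

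The 4 covered shares of each gene were compared with those of all genes that had the same Pol II promoter calls. The nearest genes, by the sum of the 4 absolute differences in percentage points, were Fam120c for Acaca (1.27, of 5489 genes), Irf1 for Srebf1 (5.81), Myo19 for Acly (8.92), Sh2d5 for Scd1 (11.1, of 2940), Atp13a1 for Fasn (14.8), Itpr3 for Sqle (15.7, of 942), Tspyl1 for Scd2 (15.9, of 1309) and Baz2a for Srebf2 (19.6). Among the 8 genes themselves the nearest pair was Acly and Sqle, with 29.9 points, out of far fewer candidates.

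Other genes of the pathway were taken from a list of 40, with 14 of fatty acid synthesis, 19 of cholesterol synthesis and 7 that process or regulate SREBPs. A Pol II promoter peak was found at 18 of the 40 in each mESC library, and at 34 for WT and 33 for KO MEFs. The shares of all genes, repeated from above, were 33.9%, 31.3%, 54.1% and 51.1% in WT and KO mESCs and WT and KO MEFs. H2Bub1 peaks lay in 30 and 38 bodies in WT and KO mESCs and in 19 and 35 in WT and KO MEFs. The shares of all genes in the same order were 53.6%, 60.8%, 30.4% and 53.0%. The median covered share was 19.9% and 56.0% in mESCs, and 0% and 29.9% in MEFs. It was at least 10 points higher in KO at 27 of the 40 in mESCs and 30 in MEFs, against 32.1% and 45.0% of all genes. Among those with Pol II peaks at the promoter in both genotypes, it was 7 of 13 in mESCs and 27 of 33 in MEFs, near the 54.5% and 82.1% of all such genes. Without that restriction, the share was at least 10 points higher at 15 of 19 cholesterol genes in mESCs and 17 of 19 in MEFs. On the fatty acid side, this was so at 7 and 9 of 14, and among SREBP regulators at 5 and 4 of 7. With the restriction, the cholesterol side had 4 of 5 in mESCs and 16 of 18 in MEFs. The fatty acid side then had 2 of 5 and 8 of 9, and the regulators 1 of 3 and 3 of 6.

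The largest differences in mESCs were at Msmo1, a sterol oxidase, with 17.6% in WT and 83.9% in KO, at the X-linked sterol isomerase gene Ebp, with 3.59% and 68.1%, and at the elongase gene Elovl1, with 40.6% and 100%. In MEFs they were at the mitochondrial citrate carrier gene Slc25a1, with 0% and 100%, at Insig2, which encodes a protein that retains SREBPs in the endoplasmic reticulum, with 4.32% and 93.1% and no Pol II promoter peak in either, and at the fatty acid desaturase gene Fads1, with 6.56% and 71.7%. Insig1, the related SREBP retention gene and itself an SREBP target, was the only one of the 40 that was lower by at least 10 points, with 71.1% for WT and 48.5% for KO MEFs. Over all genes, 2.81% in mESCs and 0.109% in MEFs were lower by that much. The Pol II promoter fold of Insig1 in MEFs was 37.2 in WT and 40.1 in KO.

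In mESCs a Pol II promoter peak was found in WT alone at Elovl6, Cyp51, Mvd, Scap and Hmgcs1, and in KO alone at Mvk, Me1, Idi1, Acat2 and the X-linked gene Mbtps2. These are 5 and 5 of the 40, against 7.64% and 5.13% of all genes. In MEFs it was found in WT alone at the X-linked gene Mid1ip1. Of the 33 genes with a ratio in MEFs, 9 had a KO over WT promoter ratio of at most 1 over 1.5, near the 24.3% of all genes, and 1 had a ratio of at least 1.5, against 5.72%. By branch this was 6 of 18 genes on the cholesterol side, 2 of 9 on the fatty acid side and 1 of 6 among the regulators. In mESCs a ratio of at most 1 over 1.5 was seen at 2 of 13 genes and one of at least 1.5 at 1 of 13. The shares of all genes there were 10.8% and 11.0%. Pol II body peaks over the 40 genes numbered 17 for WT and 8 for KO mESCs and 47 for WT and 24 for KO MEFs. Body peaks were fewer in KO over all genes as well, as given above, and equal numbers of peaks were not tried for this list. On the cholesterol side in MEFs, the branch of Sqle, they numbered 32 in WT and 11 in KO, while the fatty acid side had 8 in each and the SREBP regulators had 7 in WT and 5 in KO. The split differed in mESCs, where WT and KO had 10 and 3 on the fatty acid side, 6 and 2 on the cholesterol side and 1 and 3 among the regulators.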

How the data were processed

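The 8 peak lists of H2Bub1 and RPB1 (Pol II) libraries from WT and KO mESCs and MEFs were analysed, 1 per group, and the inputs and the libraries for serine-phosphorylated Pol II were not analysed here. The submitters' processing notes name bcl2fastq 2.17.1.14, Bowtie 1.0.0, MACS2 2.1.1.20160309 and mm10. Per the methods, reads were scaled before peak calling, for H2Bub1 by size factors over intergenic regions and for Pol II by the total of mapped reads. How this entered the calls, the control and the thresholds are not given in the sources used here. The authors gave each peak a fold, which is a ratio of its pileup over local background (the summit value of a narrow peak, the mean of a broad one). The authors also deposited the -log10 p and -log10 q, a score that derives from the q, and for narrow peaks the summit offset. Depth is unknown.

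Coordinates were set against GENCODE M21 (GRCm38). A call needed 1 bp of overlap. All genes of the list are named, with the 2 nearest genes in H2Bub1 shares computed for each, and of the pathway list those with a Pol II promoter peak in 1 genotype and the 3 largest rises and falls. Of these, 1 nearest gene per member and the falls past 10 points are printed. The genes and lists were chosen with earlier results of these data known. With 1 library per group no test was made. As alternatives, peaks under a -log10 q of 3 were dropped, WT and KO lists were cut to equal length by -log10 p, peaks under 1000 bp apart were joined, a gene call was set at 10% of the body, the promoter ran from -100 to 300 bp or took in any annotated start, and the body was limited to its first 5 kb or taken from 1000 bp onward. The Pol II covered share and the peaks past the gene end, with their alternatives, were added after seeing the data. Functions were tested on simulated peaks. Python 3.11.15, numpy 2.4.6, pandas 2.3.3 and matplotlib 3.10.9 were used.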

Additional observations from a re-analysis of the deposited data

Results flagged for a closer look

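Values of 3 genes moved in opposite directions in mESCs and MEFs, each from 1 library per group, and the difference between the cell types was not tested. The H2Bub1 covered share of Scd2 differed between KO and WT by -12.74 points in mESCs and 58.76 points in MEFs. Over the first 5 kb the differences were 9.5 and 11.62 points, so the directions were then the same. With a -log10 q of at least 3 they were -26.74 and 100 points, further apart. The covered share of Fasn differed by -5.759 points in mESCs and 3.556 points in MEFs, and the value in MEFs went down to -2.994 points among the alternatives. The KO over WT ratio of the Pol II promoter fold at the upstream start of Srebf1 was 1.669 in mESCs and 0.7704 in MEFs. Among the alternatives that gave a value, the ratio was 1.183 to 1.355 in mESCs and 0.6086 to 0.7704 in MEFs.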

How the results depend on the processing

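Of 230 values recomputed under an alternative, all but 26 kept to the limits used, a count, median or ratio within 1.5 times the reported one or a difference within 10 points of it. Many of these could not move. A cut to equal length leaves the shorter list as it was, and dropping weak peaks leaves a promoter fold that comes from a strong peak. With a -log10 q of at least 3, H2Bub1 was called in 1 gene body in WT MEFs instead of 6, the median covered share there was 0%, and 1 gene instead of 4 had an H2Bub1 gain in mESCs. The difference at Srebf2 in mESCs was then -0.012 points instead of 20.8. Over the first 5 kb, the median covered share was 83.9% in WT mESCs, and it was 30.6% and 89.8% in WT and KO MEFs, and the difference at Scd2 in mESCs was 9.5 points instead of -12.7. The median KO over WT promoter ratio in mESCs ran from 0.812 to 1.05, with 0.913 reported. With equal numbers of peaks, Pol II body peaks numbered 6 in WT mESCs and 12 in WT MEFs, still above KO. No library could be left out, since each group had 1, and no paired analysis was possible because no group had a second sample. Peak lists hold no reads, so a gene without a peak may still carry signal below the threshold.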
